A study of Homo sapiens with 9 samples.

Results

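The comparison described here is that of PANC-1 cells given a miR-520f mimic with PANC-1 cells given only the lipid that carries such mimics into cells. It was made from the treatment labels alone and used 6 of the 9 arrays of the series. PANC-1 is an epithelial cell line established from a human pancreatic carcinoma. The miR-520f group (3 arrays) was transfected with 20 nM of the miR-520f mimic in Lipofectamine RNAiMAX. The non-transfected group (3 arrays) received Lipofectamine RNAiMAX alone and no RNA. A negative control group (3 arrays), transfected with 20 nM of a mimic of control sequence in the same reagent, served to tell apart the genes that also changed against transfected RNA of another sequence. RNA was taken 72 h after transfection in every group, and the labels call the 3 replicates of each group biological. Nothing in the labels says how the cultures were separated, so a p-value reflects no more than how much these arrays varied. Because the non-transfected cells took up no RNA, this comparison holds the total change of the treatment, made up of whatever the microRNA and the presence of a transfected RNA each brought about.

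A microRNA guides the silencing complex to messenger RNAs by pairing its seed, bases 2 to 8, with sites that lie mostly in 3′ untranslated regions, and the paired messages are degraded or less translated. A mimic is a short synthetic double-stranded RNA of which one strand is loaded into that complex in place of the natural microRNA. Double-stranded RNA is also a signal of viral infection: sensors such as RIGI and IFIH1 in the cytoplasm, TLR3 in endosomes and the kinase EIF2AK2 bind it, and the interferon pathway then switches on a large set of antiviral effector genes. For this reason gene changes after transfection with a mimic are usually read against a control mimic as well as against cells without RNA.

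The sequences below are those of the microRNA itself and of 3 relatives, shown because the seed is what would select its direct targets. They are RefSeq entries (GRCh38.p14), written 5′ to 3′ with the seed in capitals. The labels do not state which arm the mimic copies, so both arms of miR-520f are given, and the sequence of the control mimic was not used here.
hsa-miR-520f-3p: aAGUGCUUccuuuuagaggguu
hsa-miR-520f-5p: cCUCUAAAgggaagcgcuuucu
hsa-miR-520c-3p: aAAGUGCUuccuuuuagagggu
hsa-miR-302a-3p: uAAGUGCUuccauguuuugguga
hsa-miR-373-3p: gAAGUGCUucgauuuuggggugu
The 3p arm lies at chr19:53682213-53682234 and the 5p arm at chr19:53682173-53682194, both on the plus strand. Of 2370 mature human microRNAs in the RefSeq table, 1 carries the seed AGUGCUU, and that is miR-520f-3p itself. A further 12, among them miR-520c-3p, miR-302a-3p and miR-373-3p, carry AAGUGCU at bases 2 to 8, the same letters that begin miR-520f-3p, moved by 1 base.

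The values were log2 intensities after RMA, a method that corrects the background, gives the arrays a common distribution and combines the probes of a gene's probe set. A difference of 1 between groups on this scale is a fold of 2. Of 22011 probe sets, 14432 had a single gene symbol, and these gave 14232 genes, of which the brightest probe set of each was used. In a limma fit over all 9 arrays, a Benjamini-Hochberg adjusted p under 0.05 made a call. With miR-520f, 3927 genes differed from non-transfected cells, which is 27.6% of the genes tested, 2061 of them higher (14.5%) and 1866 lower (13.1%). The median difference over all genes was -0.03. With each array centred on its own median the balance moved, to 2460 higher and 1524 lower. A fold of at least 2 was reached by 223 of the higher and 269 of the lower genes.

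The called genes divided by how they stood against the negative control, a comparison that shares the miR-520f arrays and called 28.1% of all genes. In 2559 genes (18.0% of those tested) the miR-520f arrays also differed from the negative control with the same sign, 1333 higher (9.37%) and 1226 lower (8.61%). In 62 genes (0.436%) they differed from both controls with opposite signs. The remaining 1306 genes (9.18% of those tested and 33.3% of those called) passed against non-transfected cells and did not pass against the negative control. Of these, 702 were higher with miR-520f (4.93% of those tested) and 604 lower (4.24%); with arrays centred on the median the numbers were 887 and 430. Their median absolute difference from non-transfected cells was 0.43, against 0.59 for the genes called against both controls. Only 27 higher and 22 lower genes of this class reached a fold of 2, against 194 and 247 of the genes called against both controls. Their levels were much like those of the genes called against both controls, with medians of 6.21 and 6.36, where the median over all genes was 4.53.

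Missing the threshold in one comparison does not show that a gene behaves differently in it. The test of that difference is the contrast of the controls themselves, since the 2 comparisons of a gene differ exactly by the change from non-transfected to negative control cells. That contrast called 2174 genes (15.3% of those tested). It called 631 of the 1306 genes, 337 of those that were higher with miR-520f and 294 of those that were lower. The choice of this class favours such calls, because the contrast is the difference between the 2 comparisons by which its genes were picked. For the other 675 the difference between the comparisons was not shown, and 279 of the 1306 had an adjusted p under 0.10 against the negative control. Among the 2559 genes called against both controls with the same sign, the contrast of the controls called 599.

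**Figure D1:**
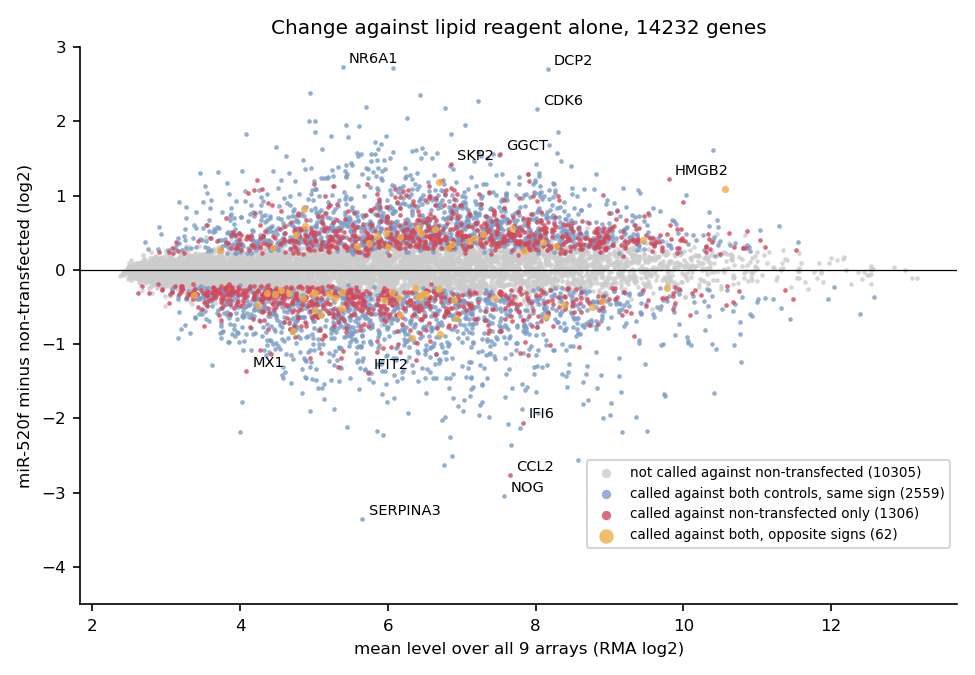
Difference between miR-520f and non-transfected cells (log2) against the mean level over all 9 arrays (RMA log2), 1 point per gene for 14232 genes. Colours give the class of a gene by its calls against both controls; the red points, called against non-transfected cells and not against the negative control, lie mostly closer to 0 than the blue ones, with CCL2 and IFI6 as the lowest of them.

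CCL2, a chemokine that attracts monocytes, showed the largest fall of the genes not called against the negative control. Its level (probe set 7385547) was 9.50, 9.62 and 9.72 on the non-transfected arrays and 6.96, 6.62 and 6.95 on the miR-520f arrays. The negative control arrays read 5.74, 6.93 and 6.83. Both groups that received RNA lay far below the cells that received lipid alone, and the groups with RNA overlapped each other. The fall against non-transfected cells was 2.77 on the log2 scale (SE 0.25, limma adjusted p = 1.35e-05), a fold of 6.80. Against the negative control the difference was 0.34 (95% confidence interval -0.21 to 0.90, not adjusted for the number of genes). The negative control itself stood below non-transfected cells by a log2 difference of -3.11 (limma adjusted p = 3.50e-05).

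The interferon effector IFI6, a small membrane protein induced by type I interferon, was second in size. It measured 8.81, 9.70 and 8.57 on the non-transfected arrays, 7.15, 8.05 and 7.24 on the negative control arrays and 6.48, 7.37 and 7.07 on the miR-520f arrays. All 3 lipid-only arrays were above the other 6, although its groups were broad, with standard deviations of 0.60, 0.50 and 0.45 (n = 3 each). The fall was 2.06 (SE 0.32, limma adjusted p = 0.00060), and the difference from the negative control was -0.51 (95% confidence interval -1.21 to 0.20). With the replicate number as a block in the fit, the latter difference was called (limma adjusted p = 0.0255).

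IFIT2, which binds viral RNA and limits its translation, read 6.84, 6.98 and 6.58 without RNA, 4.62, 5.31 and 5.01 with the control mimic and 5.29, 5.58 and 5.35 with miR-520f. The mean of its miR-520f arrays lay between those of the other groups, nearer to the negative control, whose arrays they overlapped. Its fall against non-transfected cells was 1.39 (SE 0.16, limma adjusted p = 7.88e-05). It was above the negative control by 0.43 (limma adjusted p = 0.0732), and that difference was called without replicate 2 of the negative control (0.60, limma adjusted p = 0.0151) and without the dimmest 25% of genes (limma adjusted p = 0.0455). It was also called with the replicate number as a block (limma adjusted p = 0.0193). MX1, a GTPase that traps viral nucleocapsids, went from 4.80, 5.29 and 4.83 to 3.56, 3.70 and 3.55 with miR-520f, with 3.58, 3.84 and 3.58 in the negative control. The last values are near the lower end of the scale, where RMA compresses differences. IFI35, an interferon-induced protein, fell by 1.22, and TRIM14, an adaptor in antiviral signalling, by 1.13. Among the 12 largest falls of this class, therefore, IFI6, IFIT2, MX1, IFI35 and TRIM14 are genes known for their induction by interferon or their part in antiviral signalling.

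The other falls of that size were of genes with diverse roles. EDN1, which encodes the vasoconstrictor peptide endothelin-1, went from 8.52, 8.63 and 8.62 to 7.57, 7.32 and 7.46 (log2 difference -1.14, limma adjusted p = 7.41e-06). RASGEF1A, an exchange factor that activates RAS proteins, went from 6.19, 6.16 and 6.12 to 5.03, 4.97 and 4.91, and its negative control arrays (4.81, 5.06 and 5.10) overlapped these. ARRB1, or beta-arrestin 1, which desensitises G protein-coupled receptors, fell by 1.13, and its difference from the negative control was 0.02 (95% confidence interval -0.21 to 0.25). MXRA5, a secreted matrix protein, fell by 1.18 and differed from the negative control by -0.08. In each of these 4 genes the contrast of the controls was called, with log2 differences of -0.95, -1.16, -1.14 and -1.10 in the order given here.

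RNF208, a RING-type ubiquitin ligase, and TMEM230, a membrane protein of vesicles, were less clear members of the class. RNF208 fell by 1.31 against non-transfected cells, of which 1 array read 6.81 and the others 5.45 and 5.61, and it stood at -0.72 against the negative control (limma adjusted p = 0.0847). TMEM230 fell by 1.12, from 8.62, 8.66 and 7.83 to 7.28, 7.28 and 7.18. For neither gene was the contrast of the controls called (limma adjusted p = 0.224 and 0.0592). Without replicate 1 of the negative control, TMEM230 passed against that control too (log2 difference -0.65, limma adjusted p = 0.0371), and it did so without replicate 3 of the non-transfected cells. Without replicate 1 of the non-transfected cells, RNF208 passed against the negative control (limma adjusted p = 0.00149).

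On the side of the rises, GGCT and SKP2 led the class. GGCT, gamma-glutamylcyclotransferase, an enzyme of glutathione breakdown, went from 6.74, 6.59 and 6.46 to 7.98, 8.08 and 8.41, a rise of 1.56 (SE 0.14, limma adjusted p = 1.03e-05). Its negative control arrays read 8.05, 7.62 and 7.70, and without replicate 1 of that group it passed against the negative control as well (log2 difference 0.50, limma adjusted p = 0.0130). SKP2, the subunit of an SCF ubiquitin ligase that recognises the cell cycle inhibitor p27, read 6.06, 5.69 and 5.72 without RNA, 7.58, 7.54 and 7.32 with the control mimic and 7.27, 7.20 and 7.28 with miR-520f. Here the miR-520f arrays lay just below all 3 negative control arrays and far above the lipid-only arrays. The rise was 1.43 (SE 0.11, limma adjusted p = 4.10e-06), and the difference from the negative control was -0.23 (95% confidence interval -0.47 to 0.01).

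HMGB2, a chromatin protein that bends DNA and is abundant in dividing cells, rose from 9.07, 8.78 and 9.05 to 10.02, 9.85 and 10.70. Its negative control arrays, at 10.29, 10.17 and 10.30, lay within the range of the miR-520f arrays. LIFR, a receptor chain for leukaemia inhibitory factor, rose by 1.19, and the mean difference between its miR-520f and negative control arrays was 0.02 (95% confidence interval -0.28 to 0.31). Its ligand gene LIF fell against non-transfected cells, by 1.52, and was also lower than in the negative control, by a log2 difference of -1.20.

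CDK1, the kinase that drives entry into mitosis, rose from 7.37, 7.31 and 7.21 to 8.49, 8.22 and 8.78, a rise of 1.20 (SE 0.21, limma adjusted p = 0.0014). In the negative control it read 7.36, 8.11 and 8.31, so that replicate 1 of that group matched the lipid-only arrays while the other 2 arrays were near the miR-520f arrays. The homologous recombination protein RAD51AP1 had the same arrangement, with 5.78, 6.83 and 6.96 in the negative control beside 6.28, 5.92 and 5.81 without RNA and 7.37, 7.03 and 6.97 with miR-520f. Over all genes, replicate 1 of the negative control departed from its group's mean by 0.169 (root mean square), and the other arrays by 0.0698 to 0.131. Without it the contrast of the controls was called for CDK1 (log2 difference 0.91, limma adjusted p = 0.00209) and for RAD51AP1 (0.89, limma adjusted p = 0.00353), and with it for neither. Without replicate 3 of the negative control, in turn, both genes passed against that control, CDK1 by 0.76 (limma adjusted p = 0.0179) and RAD51AP1 by 0.82 (limma adjusted p = 0.0375), with contrasts of the controls of 0.44 and 0.30 that were not called. CDK1 also passed against the negative control when the dimmest 25% of genes were left out (limma adjusted p = 0.0398).

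The remaining rises of the class were between 1.10 and 1.29. They were MKNK2, a kinase that phosphorylates the cap-binding factor eIF4E (1.29), MTFR2, a regulator of mitochondrial fission (1.22), and BMF, a pro-apoptotic BH3-only protein (1.16). The repair exonuclease EXO1 (1.15), LIN28B, an RNA-binding protein that blocks maturation of let-7 microRNAs (1.13), and SLC35D2, a carrier of nucleotide sugars (1.10), completed them. LIN28B read 4.62, 4.35 and 4.38 without RNA, and all 6 arrays with RNA lay between 5.40 and 5.86. MKNK2 was at the edge of the class, with a limma adjusted p of 0.053 against the negative control, and left it in 6 other settings. MTFR2 passed against the negative control without replicate 1 of that group (0.53, limma adjusted p = 0.00561), and BMF without replicate 2 of miR-520f (0.34, limma adjusted p = 0.0382). Of these 24 genes with the largest differences, 20 were also called in the contrast of the controls, and 14 stayed in the class in each of 16 other settings. The rule that named these genes itself favours a call in that contrast.

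**Figure D2:**
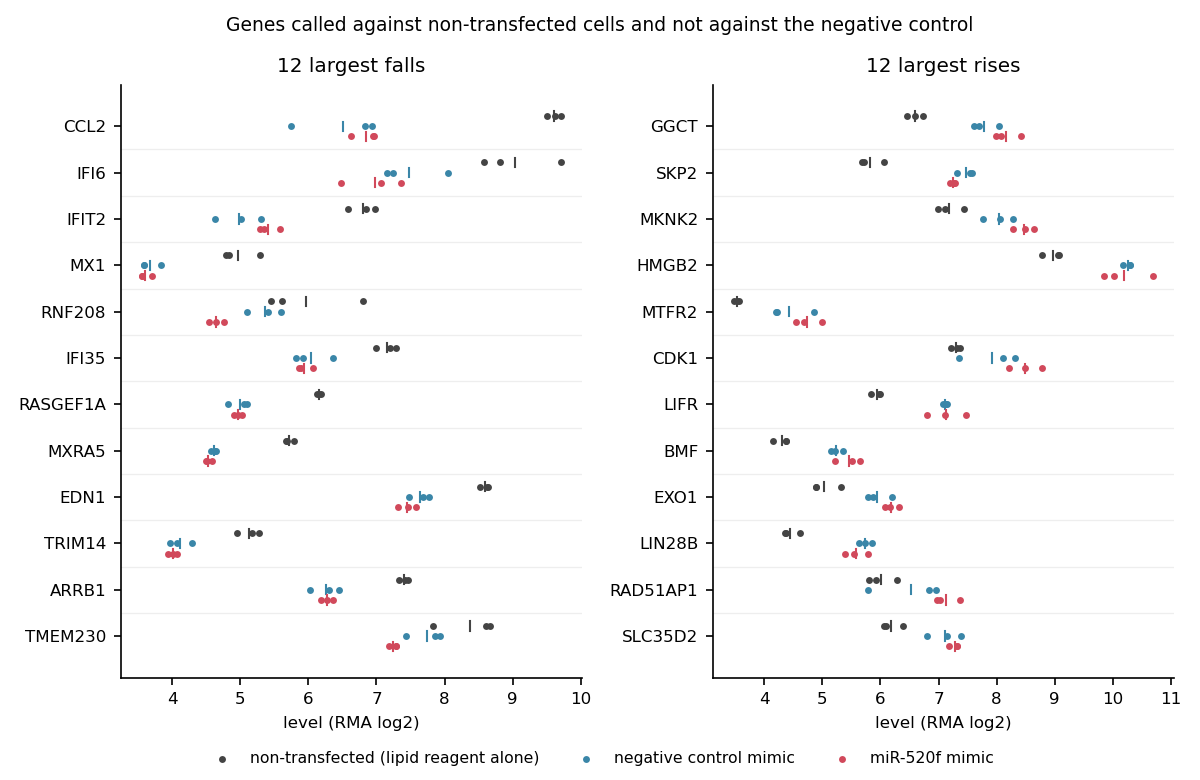
Level on each of the 9 arrays (RMA log2) for the 12 largest falls (left) and 12 largest rises (right) among genes called against non-transfected cells and not against the negative control; points are arrays, vertical bars group means. For CCL2, MX1, RASGEF1A, SKP2 and LIN28B the blue and red points lie close together and away from the dark points; for CDK1 and RAD51AP1 replicate 1 of the negative control sits with the dark points.

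Some genes changed against both controls, but by far more against non-transfected cells. SERPINA3, a secreted inhibitor of serine proteases and an acute-phase protein, had the largest fall of all genes. It measured 7.49, 7.37 and 7.45 without RNA, 5.40, 5.55 and 5.39 with the control mimic and 4.04, 4.07 and 4.15 with miR-520f, 3 separate steps with no overlap. The fall against non-transfected cells was 3.35 (SE 0.07, limma adjusted p = 1.34e-09), a fold of 10.2, and its difference from the negative control was -1.36. DKK1, a secreted inhibitor of WNT signalling, fell in the same stepwise way, from 8.18, 8.36 and 8.25 through 6.41, 6.74 and 6.64 to 5.85, 5.77 and 5.65. THBS3, FBXO27 and TSPAN1, a matrix thrombospondin, an F-box protein and a tetraspanin, fell by 1.90, 1.88 and 2.18 against non-transfected cells, with -0.67, -0.73 and -1.09 against the negative control.

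Stepwise rises were seen as well. DCP2, the enzyme that removes the cap of messenger RNAs and so commits them to decay, read 6.82, 6.70 and 6.70 without RNA, 8.34, 8.22 and 8.36 with the control mimic and 9.39, 9.27 and 9.66 with miR-520f. Its rise was 2.70 against non-transfected cells, beside 1.13 against the negative control. SCML2, a Polycomb-group protein, rose by 2.71 and 1.07 in the same order, KLHDC3, a substrate receptor of a ubiquitin ligase, by 1.85 and 0.65, and E2F7, a repressor of the E2F family, by 1.56 and 0.36. TFPI2, a secreted protease inhibitor, rose by 1.62 and 0.46. In all 10 of these genes the contrast of the controls was called, which was part of the rule that named them. Among the other genes of largest difference, the nuclear receptor NR6A1 rose by 2.73 with a contrast of the controls of 0.37, and NOG, an antagonist of bone morphogenetic proteins, fell by 3.05 with -0.14. The transporter ABCC3 fell by 2.62 with -0.78, and the interleukin-6 receptor gene IL6R rose by 2.38 with 0.46.

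In the 62 genes of opposite sign the mean of the miR-520f arrays lay between those of the controls. It was above non-transfected cells in 26 and below them in 36. STK40, a pseudokinase, read 6.75, 6.50 and 6.42 without RNA, 8.45, 8.38 and 7.95 with the control mimic and 7.02, 7.09 and 6.99 with miR-520f. Its difference was 0.48 against the first group and -1.23 against the second, so the change of the control mimic was the larger. SESN2, a stress-induced inhibitor of mTORC1, the centriole assembly protein SASS6 and the carbonic anhydrase CA2 were likewise intermediate, 0.57, 0.50 and 0.59 above non-transfected cells. The calls of STK40, SESN2 and SASS6 were lost in 4, 5 and 5 other settings. On the other side, MSRB3, which repairs oxidised methionine, read 7.63, 7.40 and 7.56 without RNA, 5.78, 6.10 and 5.95 with the control mimic and 6.66, 6.65 and 6.68 with miR-520f. The cell surface glycoprotein THY1, the myosin light chain MYL9 and RPRD1A, a protein that binds the tail of RNA polymerase II, were below non-transfected cells by log2 differences of -0.65, -0.63 and -0.60.

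Many genes of the interferon response were lower with miR-520f. Of 97 measured genes of this list, 46 fell against non-transfected cells, where 13.1% of all genes did, and 4 rose. Of the 46, 35 were also lower than in the negative control and 11 were not called there. Over all genes, 604 of the 1866 falls were not called there. The median difference of the list was -0.24 against non-transfected cells, beside -0.03 for all genes, and -0.13 against the negative control.

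By role, most falls were of effectors and antigen presentation genes, which are also most of the list. Among the 12 RNA sensors and adaptors 4 fell and 2 rose. IFIH1, which senses long double-stranded RNA, read 4.09, 4.30 and 4.12 without RNA and 3.74, 3.74 and 3.65 with miR-520f (log2 difference -0.46, limma adjusted p = 0.0060), and 3.86, 3.75 and 3.47 in the negative control. DHX58, a regulator of that family, fell by 0.32, and TBK1, the kinase that activates IRF3, rose by 0.47, a call that was lost in 8 other settings. RIGI, which senses RNA with a triphosphate end, stood at 6.61, 6.90 and 6.72 without RNA and at 6.58, 6.70 and 6.81 with miR-520f, and these arrays overlapped. It was the negative control, at 5.67, 5.87 and 5.80, that lay apart, so that RIGI was called against that control only (log2 difference 0.92, limma adjusted p = 3.38e-05). TLR3, at 2.56 to 2.77 on all 9 arrays, was at the lower end of the scale, and EIF2AK2, at 8.53 to 9.16, differed from non-transfected cells by -0.08 (limma adjusted p = 0.787).

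The measured interferon genes IFNB1, IFNE, IFNK and IFNG had a median level of 2.69, close to the lowest value of the table, 2.23. Their differences from non-transfected cells were between -0.11 and -0.02. Of 14 receptors and signal transducers, 5 fell and 1 rose. The transcription factor IRF9, which brings STAT dimers to interferon response elements, went from 6.60, 6.62 and 6.56 to 5.40, 5.57 and 5.13 (log2 difference -1.23, limma adjusted p = 1.76e-05), with 5.66, 6.0 and 5.79 in the negative control. IRF2 fell by 1.21, and IFNGR2, a chain of the receptor for interferon gamma, by 0.46. Of these, IFNGR2 did not pass against the negative control, from which it differed by -0.02.

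Of 54 effectors, 28 fell and 1, the RNA-editing enzyme ADAR, rose by 0.33. Of the 28, 8 did not pass against the negative control: IFI6, IFIT2, MX1, IFI35, IFIT3, OAS1, OASL and OAS2. In each of these 8 the contrast of the controls was called, beside 631 of the 1306 genes of the class over all genes. The choice of the class favours such calls. IFIT3, a partner of IFIT1 and IFIT2, read 5.18, 5.39 and 4.81, then 3.74, 3.87 and 3.32 in the negative control and 3.99, 4.44 and 3.71 with miR-520f. OAS1, which makes the second messenger that activates RNase L, fell by 0.75, and its 9 arrays all lay between 3.08 and 4.11. Of the other 20 lower effectors, the largest falls were those of the membrane protein IFITM1 (-1.95 against non-transfected and -1.47 against negative control cells), the secreted glycoprotein LGALS3BP (-1.73 and -1.01), the ubiquitin ligase DTX3L (-1.61 and -1.16) and PARP14, an ADP-ribosyltransferase (-1.49 and -1.44).

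Effectors did not move as a block. IFIT1 and ISG15 are 2 classical interferon-induced genes chosen here after their values were seen. Both were nearer to the lipid-only level with miR-520f than with the control mimic. IFIT1 read 7.20, 7.65 and 7.45 without RNA, 5.23, 5.62 and 5.24 with the control mimic and 7.18, 7.28 and 7.11 with miR-520f. Its difference from non-transfected cells was -0.24 (limma adjusted p = 0.222) and that from the negative control was 1.83 (limma adjusted p = 2.24e-06). ISG15, a ubiquitin-like modifier, differed by -0.17 and 0.36 in that order, smaller differences than those of IFIT1. IFIT1 thus lay apart from its neighbours IFIT2 and IFIT3, which were lower with either mimic. Over all 54 effectors the contrast of the controls called 19 lower and 2 higher in the negative control than in non-transfected cells, where 8.28% and 7.0% of all genes were called in those directions.

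In antigen presentation 9 of 13 genes fell against non-transfected cells, and each of the 9 was also lower than in the negative control. ERAP1, which trims peptides in the endoplasmic reticulum, fell by 1.30, the peptide transporter TAP1 by 1.19 and the immunoproteasome subunit PSMB8 by 0.86. The median of these 13 genes was -0.67 against non-transfected cells, beside -0.60 against the negative control.

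**Figure D3:**
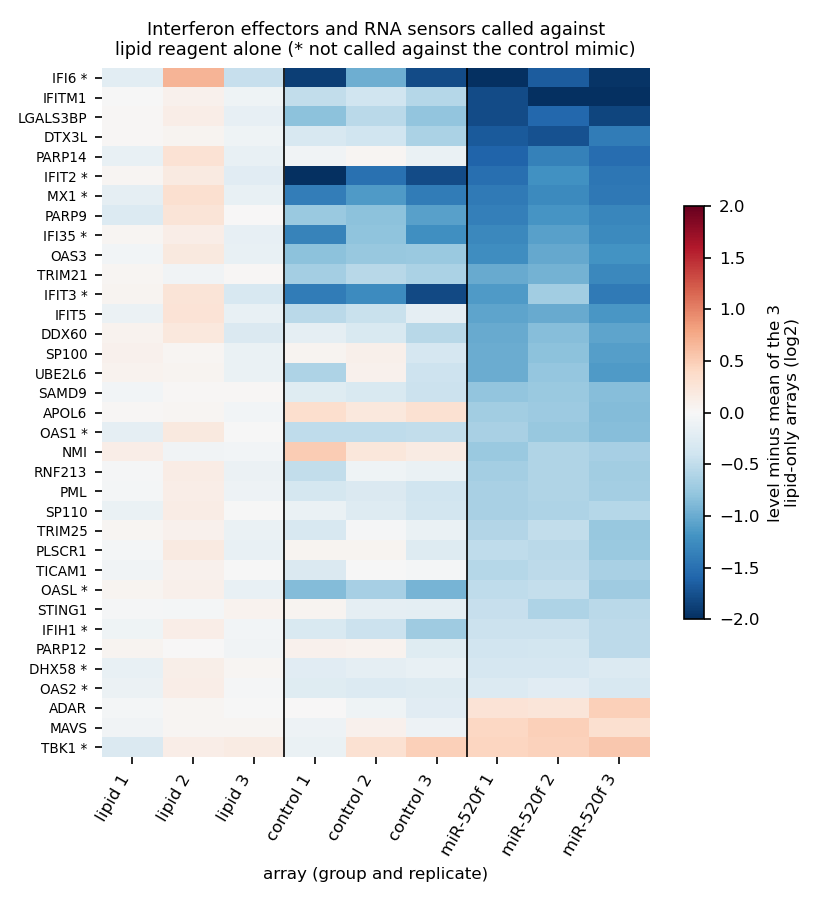
Level of each array minus the mean of the 3 lipid-only arrays (log2, colour; the scale stops at -2 and 2) for interferon effectors and RNA sensors and adaptors called against lipid reagent alone, in columns of lipid-only, negative control and miR-520f arrays. Stars mark genes not called against the negative control: IFI6, IFIT2, MX1, IFI35 and IFIT3 are blue in both groups with RNA, whereas PARP14, SP100 and APOL6 are blue with miR-520f and not with the control mimic.

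Most of these effectors carry the response element through which interferon acts. An exact match to the interferon-stimulated response element (GAAA, any 2 bases, then GAAA, on both strands, from 250 bases before to 50 after the gene start) was found for 28 of 44 effectors with a RefSeq promoter (63.6%) and for 9 of 11 antigen presentation genes, against 3.04% of 11385 tested genes. Of the effectors that fell 15 of 23 held a match (65.2%), and of the others 13 of 21 (61.9%). The promoter of IFI6 is printed because that gene led the effectors and holds 3 matches, in capitals, in the 250 bases before its start (RefSeq, GRCh38.p14, chr1:27672193-27672442, minus strand).
IFI6: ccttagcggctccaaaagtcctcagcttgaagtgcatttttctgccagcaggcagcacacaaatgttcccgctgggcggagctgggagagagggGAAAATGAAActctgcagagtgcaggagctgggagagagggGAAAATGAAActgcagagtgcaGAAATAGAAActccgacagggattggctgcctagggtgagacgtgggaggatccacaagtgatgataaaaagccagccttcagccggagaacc
The first match begins 156 bases and the last 93 bases before the start of the gene. A match describes the letters only and is no measurement of binding.

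The list of NF-kappaB and inflammation, a pathway that is also switched on by RNA sensors, had 47 measured genes, of which 16 fell and 3 rose, where 13.1% and 14.5% of all genes did. Of the 16 falls, 6 did not pass against the negative control, beside 604 of the 1866 falls over all genes. NFKBIA, the inhibitor that NF-kappaB itself induces, went from 8.41, 8.51 and 8.37 to 7.27, 7.60 and 7.51, with 7.63, 7.67 and 7.74 in the negative control (log2 difference from non-transfected cells -0.97, limma adjusted p = 1.70e-05). The related inhibitors NFKBIE and NFKBIB fell by 0.37 and 0.25, and these calls were lost in 6 and 9 other settings. Among the targets, TNFAIP2 fell by 0.75 and the adhesion molecule ICAM1 by 0.47 beside CCL2, and the call of ICAM1 was lost in 7 settings. The subunit RELA fell by 1.67, and the adaptors IRAK2 and MYD88 by 2.18 and 1.28, all 3 also against the negative control. The cytokine genes IL6, CXCL8, IL1A, IL1B and TNF differed by -0.13 to 0.06 and were not called.

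**Figure D4:**
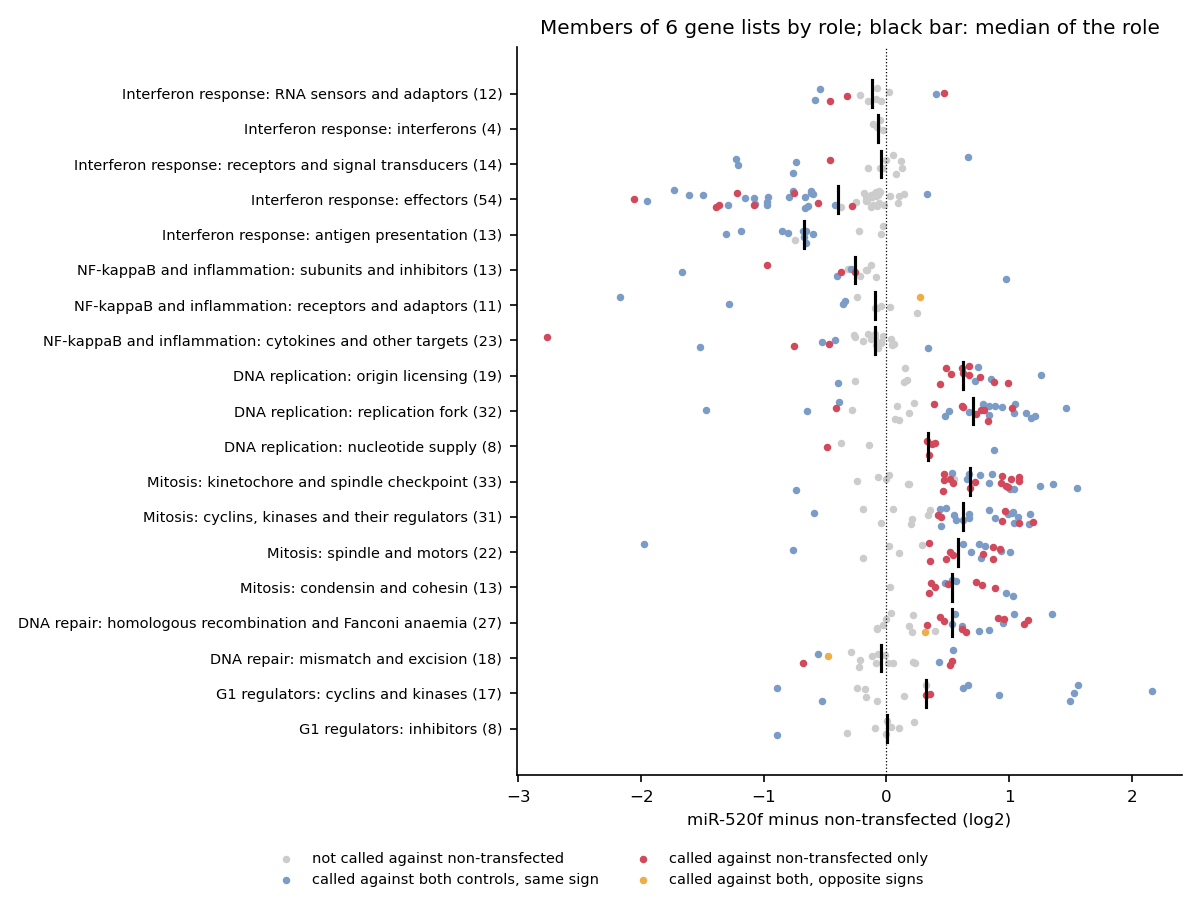
Difference between miR-520f and non-transfected cells (log2) for the measured members of 6 gene lists, 1 point per gene, in rows by role with the number of members; black bars are medians of the role. Effectors and antigen presentation genes lie mostly left of 0 and genes of licensing, replication fork, kinetochore and spindle mostly right of it, with red points (not called against the negative control) in both sets.

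Genes of DNA replication moved the other way. Of 59 measured genes, 41 rose against non-transfected cells, where 14.5% of all genes did, and 6 fell. Of the 41 rises, 22 did not pass against the negative control, and 19 did. Over all genes, 702 of the 2061 rises did not pass there. The median was 0.62 against non-transfected cells, 0.14 against the negative control and 0.44 between the controls. The contrast of the controls called 36 of the 59 higher in the negative control than in non-transfected cells and 2 lower. Over all genes it called 7.0% higher and 8.28% lower. In RNA of whole cultures, a larger share of cells in a phase of the cycle and more of a transcript per cell cannot be told apart.

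Origin licensing loads the MCM helicase onto DNA in G1 and is restrained afterwards by geminin. In this role 14 of 19 genes rose, 10 of them without a call against the negative control. GMNN, which encodes geminin, went from 4.72, 4.43 and 4.44 to 5.52, 5.36 and 5.69, and its negative control arrays, at 5.60, 5.36 and 5.26, overlapped these (log2 difference from non-transfected cells 0.99, limma adjusted p = 9.48e-05). CDC7, the kinase that fires origins, rose by 0.88, and ORC1, a subunit of the origin recognition complex, by 0.76. The helicase subunits differed among themselves, as was seen after their values were examined. MCM2, MCM5 and MCM6 rose by 0.67, 0.62 and 0.44, and none of the 3 passed against the negative control. MCM3 and MCM4 missed the threshold against non-transfected cells (-0.26 and 0.15) but were called lower than in the negative control, by log2 differences of -0.82 and -0.68.

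At the replication fork 22 of 32 genes rose, 8 of them without a call against the negative control, and 4 fell. RPA2, a subunit of the complex that coats single-stranded DNA, went from 5.41, 5.18 and 4.78 to 6.19, 6.07 and 6.20 (log2 difference 1.03, limma adjusted p = 0.00101), with 6.66, 6.23 and 6.02 in the negative control. CDC45, which activates the helicase, rose by 0.83 and the polymerase delta subunit POLD3 by 0.80. The primase subunit PRIM1 rose by 1.47 and was also 0.83 above the negative control. UHRF1, which recruits the maintenance methyltransferase to replicated DNA, was the largest of the 4 falls: it fell by 1.47 against non-transfected cells and was -1.60 against the negative control. Of the 8 genes of nucleotide supply 5 rose and 1 fell. The ribonucleotide reductase subunits RRM1 and RRM2 rose by 0.39 and 0.37, and DUT, which removes dUTP, fell by 0.48. The calls of RRM2 and DUT were lost in 3 and 5 other settings.

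**Figure D5:**
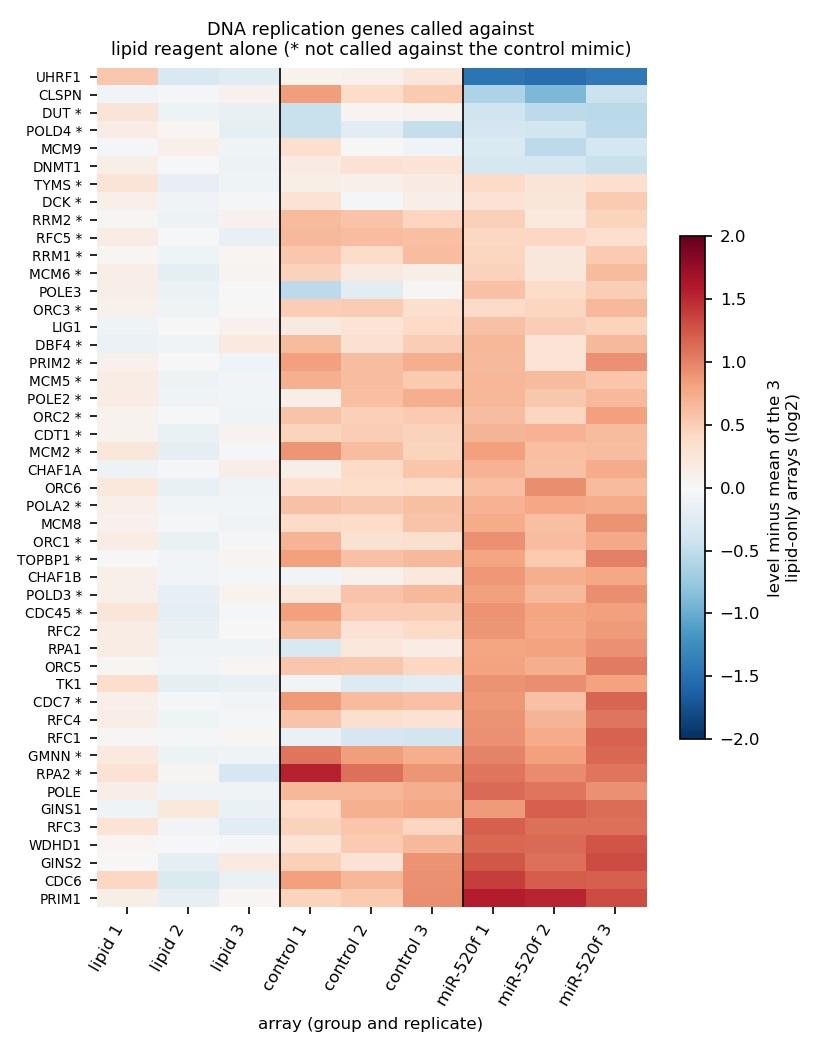
Level of each array minus the mean of the 3 lipid-only arrays (log2, colour; the scale stops at -2 and 2) for the DNA replication genes called against lipid reagent alone, in columns of lipid-only, negative control and miR-520f arrays. Stars mark genes not called against the negative control; GMNN, RPA2, CDC7 and CDC45 are red in both groups with RNA, and UHRF1 and CLSPN are blue with miR-520f.

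Of all the lists, mitosis had the largest share of higher genes, 76.8%, beside 14.5% of all genes. Of 99 measured genes, 76 rose against non-transfected cells and 4 fell, with a median of 0.63, beside 0.30 against the negative control and 0.29 between the controls. Of the 76 rises, 36 did not pass against the negative control, beside 702 of the 2061 rises over all genes. For 26 of these 36 the contrast of the controls was called, beside 631 of the 1306 genes of the class over all genes. The choice of the class favours such calls, here and in the roles and lists that follow. The 4 falls were those of CCNB1, CENPF, TUBG1 and PRC1, and each was lower than in the negative control too.

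At the kinetochore, the protein assembly by which chromosomes hold on to spindle fibres, 25 of 33 genes rose, and 14 of them did not pass against the negative control; the contrast of the controls was called for 11 of the 14. SKA1, CENPQ and CENPK, subunits of that assembly, rose by 1.08, 1.08 and 1.02. CENPQ was dim, at 3.30 to 3.75 without RNA and 4.47 to 4.73 with miR-520f. CENPF, by contrast, went from 8.72, 8.60 and 8.86 to 8.06, 7.78 and 8.14, while the negative control arrays, at 9.46, 9.09 and 9.37, were above both.

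Of 31 cyclins, kinases and their regulators 23 rose, and 6 of them did not pass against the negative control, 5 with the contrast of the controls called. Beside CDK1 these included CDC25A, the phosphatase that activates cyclin-dependent kinases (1.08), and MASTL, the kinase that holds off the mitotic phosphatase (0.97). CCNA2, the cyclin of S phase and G2, read 7.11, 6.72 and 6.90 without RNA, 8.20, 7.75 and 7.89 with the control mimic and 7.84, 7.67 and 8.06 with miR-520f. CCNB1, the cyclin that partners CDK1 in mitosis, moved against its kinase, from 7.89, 7.65 and 7.68 to 7.19, 6.98 and 7.28 (log2 difference -0.59, limma adjusted p = 0.00155). CCNB1 was named after its values were seen.

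Of 22 spindle and motor genes 16 rose, and 9 of these did not pass against the negative control. The kinesin KIF15 rose by 0.92, the spindle pole protein ASPM by 0.87 and HMMR, which binds microtubules, by 0.87. The gamma-tubulin gene TUBG1, a nucleator of microtubules, fell from 10.18, 10.02 and 9.99 to 7.99, 8.25 and 8.02 (log2 difference -1.97, limma adjusted p = 1.76e-07), with 10.02, 9.93 and 9.85 in the negative control. Here the negative control arrays lay with the lipid-only arrays. In condensin and cohesin, the ring complexes that shape and hold chromosomes, 12 of 13 genes rose. Of these 7 did not pass against the negative control, such as SMC2 (0.88), NCAPH (0.78) and NCAPG2 (0.73), and the contrast of the controls was called for 3 of the 7, not including NCAPG2 (limma adjusted p = 0.0559).

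The cell cycle genes homology region, TTTGAA, is the promoter element through which many mitotic genes are held down outside G2 and M phase. It was matched, on both strands, in 42 of 83 mitosis genes with a promoter entry (50.6%) and in 11.7% of all tested genes. CCAAT, bound by NF-Y, was matched in 54 of 83 (65.1%) and in 36.5%. For the E2F element TTTNNCGC the numbers were 25 of 54 DNA replication genes (46.3%) and 8.91% of all tested genes. Over the genes called higher, that E2F element was matched in 14.1% of those not called against the negative control and in 12.6% of those called against both. For TTTGAA these shares were 11.3% and 9.76%, at or below that of all tested genes. Of the named replication genes of the class with a promoter entry 0 of 7 held the E2F element, and of the named mitosis genes 8 of 12 held TTTGAA. The promoter of CDK1 is printed as the best known of them (RefSeq, GRCh38.p14, chr10:60778081-60778330, plus strand), with its match in capitals.
CDK1: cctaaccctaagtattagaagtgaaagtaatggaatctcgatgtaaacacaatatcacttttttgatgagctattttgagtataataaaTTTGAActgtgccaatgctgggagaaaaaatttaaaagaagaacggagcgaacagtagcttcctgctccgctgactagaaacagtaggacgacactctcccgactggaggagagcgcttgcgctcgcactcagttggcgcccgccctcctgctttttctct
The match begins 161 bases before the start of the gene.

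In DNA repair 22 of 45 genes rose and 3 fell, where 14.5% and 13.1% of all genes did. The rises were mostly in homologous recombination and the Fanconi anaemia pathway, where 18 of 27 genes rose. Of these 18 rises, 9 did not pass against the negative control, beside 702 of the 2061 rises over all genes. The contrast of the controls was called for 5 of the 9, beside 631 of the 1306 genes of the class over all genes. BRCA1, which directs recombination at broken DNA, went from 5.81, 5.59 and 5.42 to 6.51, 6.47 and 6.57 (log2 difference 0.91, limma adjusted p = 0.000113), with 6.07, 6.30 and 6.43 in the negative control. The helicase BLM rose by 0.96, beside EXO1 and RAD51AP1 described above. Of 18 genes of mismatch and excision repair 4 rose and 3 fell. MSH6, of the mismatch sensor, and the glycosylase NEIL3 rose by 0.53 and 0.51, and the nuclease subunit ERCC1 fell by 0.68.

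For the smaller lists the shares of all genes, 14.5% higher and 13.1% lower, are likewise the background. Of the 17 G1 cyclins and kinases with their transcription factors, 9 rose and 2 fell. CDK6, a kinase that phosphorylates the retinoblastoma protein, read 7.02, 7.02 and 6.79, then 8.07, 7.94 and 8.04 with the control mimic and 9.10, 8.97 and 9.25 with miR-520f, again in 3 separate steps. CDK2 and TFDP2, the partner of E2F proteins, rose by 0.33 and 0.35 and did not pass against the negative control, and the call of CDK2 was lost in 7 settings. Of the 8 inhibitors 1, CDKN1A, was called, and it fell by 0.89. Among 23 p53 targets 6 rose (26.1%) and 4 fell (17.4%), a few members above the shares of all genes. CCNG1, a cyclin induced by p53, went from 8.27, 8.20 and 8.28 to 9.33, 8.95 and 9.50, with 9.33, 9.13 and 9.21 in the negative control, and the quinone oxidoreductase gene TP53I3 fell by 0.51. Of 26 apoptosis genes 7 rose (26.9%) and 2 fell (7.69%). APAF1, the scaffold of the apoptosome, rose by 1.34 with a contrast of the controls of 0.91, and BAK1, a pore-former of mitochondria, by 1.38 with -0.03.

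The integrated stress response lowers general translation and raises amino acid supply, and EIF2AK2 is one of the kinases that start it. Of 50 measured genes of this list 14 rose (28.0%) and 9 fell (18.0%). Of these 23, 8 did not pass against the negative control, near the 33.3% of all called genes. SLC7A11, the cystine carrier, went from 8.74, 8.57 and 8.44 to 9.39, 9.21 and 9.52, with 9.35, 9.39 and 9.31 in the negative control (log2 difference 0.79, limma adjusted p = 0.000118). ATF3, a stress-induced transcription factor, rose by 0.77, PPP1R15B, which restores translation, by 0.63, and the enzymes ASNS and CHAC1 by 0.47 and 0.43. ASNS and CHAC1 lost their calls in 3 and 6 settings, and CEBPG, which fell by 0.31, in 9. Of 18 tRNA synthetases 3 rose and 3 fell. WARS1, which interferon gamma is known to induce, fell by 1.43.

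In protein folding of the endoplasmic reticulum 5 of 24 genes rose (20.8%) and 2 fell (8.33%), near the 14.5% and 13.1% of all genes. DNAJB9, a co-chaperone, rose by 0.65 and PDIA6 by 0.48 without a call against the negative control, and HERPUD1 fell by 0.67, a call lost in 6 settings. Of 18 genes of cholesterol synthesis 1 rose, the synthase HMGCS1 by 0.49, and 6 fell, among them the regulator SREBF1 by 0.34, and both these calls were lost in 5 settings. In hypoxia and glycolysis 4 of 30 rose and 11 fell. The enolase ENO2 (-0.75) and the hexokinase HK1 (-0.51) were lower and the collagen hydroxylase PLOD2 (0.47) higher, and none of these 3 was called against the negative control.

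Lysosomal hydrolases and membrane proteins fell in 13 of 33 cases and rose in 7. LIPA, the lysosomal acid lipase, read 8.98, 9.00 and 9.11, then 7.82, 8.20 and 8.25 in the negative control and 8.45, 8.26 and 8.67 with miR-520f (log2 difference from non-transfected cells -0.57, limma adjusted p = 0.00599). The protease CTSH fell by 0.64 and the thioesterase PPT1 rose by 0.46. Of 26 autophagy genes 6 rose (23.1%) and 3 fell (11.5%), near the 14.5% and 13.1% of all genes, with GABARAP lower by a log2 difference of -0.31, a call lost in 6 settings. Oxidative phosphorylation had 4 of 47 genes higher and 4 lower, including NDUFA7 (-0.48), NDUFS4 (0.43) and SDHD (0.87) without a call against the negative control. Among 26 cytosolic ribosomal proteins 1 was called, RPL6, which rose by 0.69 and lost its call in 3 settings. These 8 of 47 and 1 of 26 stand beside 27.6% of all genes.

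Among the epithelial and mesenchymal genes that differed from non-transfected cells, most also passed against the negative control and 4 did not. Over all called genes, 33.3% did not pass there. Of the 60 measured, 28 did not reach the threshold in the first comparison. Of 31 epithelial genes 12 rose and 3 fell, and 3 of the rises did not pass against the negative control: KRT18, an intermediate filament (0.41), TJP1, of tight junctions (0.38), and DSP, of desmosomes (0.46). TJP1 lost its call in 5 settings. Of 29 mesenchymal genes 5 rose and 12 fell, with TPM1, an actin-binding tropomyosin (-0.49), as the only fall not called against the negative control. In TGF-beta and BMP signalling 12 of 50 genes rose (24.0%) and 14 fell (28.0%), where 14.5% and 13.1% of all genes did. Of these 26, 9 did not pass against the negative control, beside 33.3% of all called genes. The ligand gene TGFB1 (-0.41) and LTBP3 (-0.34), which binds the latent ligand, were lower, calls that were lost in 5 settings each.

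Among TGF-beta receptors, 5 of 11 rose and 3 fell. TGFBR1 and ACVR2A rose by 0.31 and 0.44 and the co-receptor ENG fell by 0.38. TGFBR2, which the naming rule took in any case, fell by 1.40 against non-transfected cells, with a contrast of the controls of 1.08. The calls of TGFBR1 and ENG were lost in 7 and 4 settings. ADAM9, a membrane protease that the rule also took in any case, fell by 1.65 with a contrast of the controls of 0.45 (limma adjusted p = 0.0951). Of 19 SMADs and repressors 5 rose and 4 fell. SMAD3, which carries the signal of TGF-beta, went from 10.24, 10.32 and 10.23 to 9.81, 9.72 and 9.67, with 9.42, 9.68 and 9.65 in the negative control, and the SMAD targets ID1 and ID3 fell by 0.48 and 0.51, calls lost in 2 and 4 settings.

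MAPK output and immediate early genes were divided, with 12 of 38 higher and 9 lower. The AP-1 subunits JUNB and JUND fell by 0.54 and 0.52 and PHLDA1 by 0.30 without a call against the negative control, and the largest rise was that of the ETS factor ETV1 (1.81, called against both). Of 26 genes of microRNA processing and silencing 7 rose and 3 fell. Beside DCP2 and LIN28B, the exporter of microRNA precursors XPO5 read 8.09, 7.99 and 8.09 without RNA and 8.44, 8.35 and 8.69 with miR-520f (log2 difference 0.44, limma adjusted p = 0.00439), with 8.60, 8.53 and 8.44 in the negative control. CNOT8, of the deadenylase complex, rose by 0.33.

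The labelled cell line was set against marker genes. The epithelial markers KRT8, KRT18, KRT19 and EPCAM lay between the 90.4 and 99.7 percentiles of all genes by mean level, and KRT7 was dim at 3.46 in non-transfected cells. The summed level of the 6 epithelial markers ran from 45.7 to 46.4 without RNA, 45.3 to 45.9 with the control mimic and 48.0 to 48.3 with miR-520f. Its members moved apart: EPCAM, CDH1 and KRT18 rose by 1.57, 1.07 and 0.41, KRT19 fell by 0.75, and KRT8 differed by -0.23 without a call. Markers of acinar, endocrine and endothelial cells were dim, with median percentiles of 14, 18.3 and 21.7. The fibroblast and immune markers were dim too, at medians of 28.7 and 36.6, apart from COL1A1, at 8.17, and CD68, at 8.65 in non-transfected cells. CD68, a lysosomal protein of macrophages that other cells also hold, fell by 1.31 with miR-520f and was called against both controls. The summed level of the 5 measured immune markers ran from 21.8 to 22.3 without RNA, 21.5 to 21.9 with the control mimic and 20.1 to 20.9 with miR-520f, and PTPRC, CD3E, CD14 and LYZ were not called. Whether these levels had a part in the interferon result was not tested.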

How the data were processed

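Per the labels' protocols, TRIzol was used to isolate RNA of PANC-1 cells and an Affymetrix GeneChip WT PLUS kit to label it. The authors deposited log2 values of 22011 probe sets on 9 arrays; Partek 6.6, RMA and hg18 are named in the submitters' processing notes, and whether probe sets were filtered is not given in the sources used here. Across arrays the lowest value was 2.23 and the highest 13.6, and the medians of the arrays lay between 4.22 and 4.34. RMA understates differences of dim genes, and 3 arrays a group limit the precision.

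Probe sets with 1 gene symbol in the platform annotation (14432; 2408 had several and 5171 are unnamed here) were kept, and for 197 genes the brightest of several was used. limma 3.58.1 (R 4.3.3) was fitted over all 9 arrays with 6 residual degrees of freedom, and tested on simulated data. Named genes were the 12 largest rises and falls called against non-transfected cells and not against the negative control with arrays apart; the 4 largest each way over all genes; 4 of opposite sign each way; 5 each way with the largest excess over the comparison with the negative control; up to 3 members per role of each list; and TGFBR2, ADAM9 and 4 RNA sensors. The following were added after their values were seen: IFIT1, IFIT3, ISG15, OAS1, OAS2, OASL, ADAR, IFITM1, LGALS3BP, DTX3L, PARP14, SP100, APOL6, the interferon and cytokine genes, RELA, LIF, MCM2 to MCM6, PRIM1, UHRF1, CLSPN, CCNA2, CCNB1, CENPF, TUBG1, PRC1 and BRCA1. Members and lists were chosen with earlier results of these data known. Alternatives changed the arrays in the fit, moderation, normalization, filters, probe sets and thresholds.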

Additional observations from a re-analysis of the deposited data

How the results depend on the processing

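Against 3927 genes changed in comparison with lipid alone and 1306 of them not called against the negative control, the other settings gave 2726 (adjusted p under 0.01) to 4491 and 923 to 1723, apart from the added threshold on fold. With a fold of at least 2 required as well, 492 genes were changed, 223 higher and 269 lower. In that setting 247 were not called against the negative control, 138 higher and 109 lower, because the call against that control then also needed the fold. Leaving out 1 array at a time gave 3153 to 4491 changed genes, 1631 to 2389 higher and 1505 to 2102 lower, and 923 to 1651 not called against the negative control, 504 to 896 higher and 419 to 755 lower. The highest numbers came without replicate 1 of the negative control. Whether the replicate numbers pair the arrays was not settled. The correlation of the deviations of same-numbered arrays ran from -0.0262 to 0.205, and that of arrays of unlike numbers from -0.437 to 0.33. With the replicate number as a block, 4060 genes were changed (2126 higher, 1934 lower) and 1300 fell in the class not called against the negative control, 1135 of them shared. The block brought IFI6 (-0.51, limma adjusted p = 0.0255), IFIT2 (0.43, limma adjusted p = 0.0193), RNF208 and MKNK2 past the threshold against the negative control. Among the genes picked by the naming rule and called against lipid alone, not all of them described in the text, no direction reversed. Of these genes, 33 lost their call in at least 1 setting. Named genes without a call were not checked for a reversal. With 3 arrays a group, differences of dim genes such as OAS1 or CENPQ are the least certain.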
